A study of Homo sapiens with 9 samples.

Results

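The human mitochondrial genome encodes 13 mRNAs, 2 rRNAs and 22 tRNAs, and all 37 of these RNAs are rows of the gene table of this study. They were taken as every row whose gene name starts with MT-, 37 of 60829 rows, without regard to any measured value. The cells were H1, a long-established human embryonic stem cell line, grown in mTESR medium on vitronectin. Total RNA was extracted with removal of DNA, and sequenced after depletion of rRNA with a stranded kit. The first group is the knockout clone chrX-KO_H1, with a knock-out on chromosome X that its label names HERVHlin, after HERVH, a family of endogenous retroviruses (5 libraries). The other is the control clone chrX-ctrl_H1, labelled WT (4 libraries). Each group is 1 clone followed over sequential passages. The study design treats these passages as technical replicates, while the sample titles call them biological ones. All p-values below thus rest on the spread among passages of a single clone, and a difference between the clones cannot be told apart from an effect of the knockout. A treatment label reads "differentiated cells" for every library, although the medium named is one for stem cells.

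Mitochondrial DNA is transcribed from both strands into long RNAs that are cut at the tRNAs lying between the other genes. The heavy-strand transcript carries both rRNAs, 14 tRNAs and every mRNA except MT-ND6, and the light-strand transcript carries MT-ND6 and 8 tRNAs. The proteins made from the mRNAs are core subunits of respiratory complexes I, III, IV and V, and mRNA levels depend on processing and on stability as well as on transcription.

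The sequences of the 5 tRNAs at the ends of the range of mean values are shown. MT-TP, MT-TC and MT-TL2 had the highest mean values of the class, and MT-TD and MT-TS1 had almost none. They are GENCODE 29 transcripts (GRCh38), printed 5′ to 3′ on the strand of the gene, with the anticodon in capitals.
MT-TP (proline, chrM:15956-16023, minus strand): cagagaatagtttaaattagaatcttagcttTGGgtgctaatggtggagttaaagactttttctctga
MT-TC (cysteine, chrM:5761-5826, minus strand): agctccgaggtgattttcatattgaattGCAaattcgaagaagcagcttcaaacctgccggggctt
MT-TL2 (leucine, chrM:12266-12336, plus strand): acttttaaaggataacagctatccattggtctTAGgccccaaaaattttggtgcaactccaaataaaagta
MT-TD (aspartate, chrM:7518-7585, plus strand): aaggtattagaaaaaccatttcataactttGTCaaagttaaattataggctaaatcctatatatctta
MT-TS1 (serine, chrM:7446-7514, minus strand): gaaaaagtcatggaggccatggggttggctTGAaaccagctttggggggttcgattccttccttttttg

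Among the mRNA genes 2 pairs share bases. MT-ATP8 and MT-ATP6 have 16 stretches of 31 bases in common, which bears on how far their rows can be separated. MT-ND4L and MT-ND4 have 0 such stretches in common. The capitals mark the 46 bases annotated to both MT-ATP8 and MT-ATP6, and the 7 bases annotated to both MT-ND4L and MT-ND4, each with 12 flanking bases on either side.
MT-ATP8/MT-ATP6 (chrM:8515-8584, plus strand): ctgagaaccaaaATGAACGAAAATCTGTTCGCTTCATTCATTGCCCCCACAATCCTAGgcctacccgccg
MT-ND4L/MT-ND4 (chrM:10748-10778, plus strand): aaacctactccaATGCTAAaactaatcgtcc

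The deposited values are normalized counts whose steps show that transcript length had already been taken into account. Each value was a whole multiple of the smallest value of its library, yet in short transcripts these whole numbers moved in steps much larger than 1. Among other rows with a single transcript of 66 to 70 nt, the most common whole number above 0 had a median of 50 over the 9 libraries, against 27 at 140 to 160 nt, 6 at 290 to 310 nt and 2 at 490 to 510 nt. Levels of different RNAs are therefore compared below as deposited, without a second division by length. The steps shrank faster than length grew, so a step in a short row weighs more than length alone would give. Levels compared between RNAs of unlike length, such as tRNAs and mRNAs, depend on this scaling, which was not tested. If a step is 1 read, a tRNA value of about 50 rests on a single read. Of the 198 tRNA values, 21 were 0 and 39 were counted at 3 or fewer such steps. The 39 leave out values for which no other row of the same length gave a step, such as MT-TF in knockout 1 (40.2).

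Library totals of the whole numbers ran between 19838682 and 31192630. The stem cell transcripts POU5F1, NANOG, SOX2 and LIN28A were present in every library, with a lowest value of 747 normalized counts (SOX2). Of the fibroblast markers, COL3A1 and LUM reached at most 8.15, DCN at most 24.9, and COL1A1 lay between 296 and 586 in knockout libraries and between 444 and 935 in control libraries. The authors marked 3 rows as knocked out. Of these, gene.human_00015544 averaged 57.5 ± 18.4 in knockout and 2700 ± 1198 in control libraries (SD, n = 5 and 4), and gene.human_00001528 averaged 116 ± 35.9 in knockout and 698 ± 299 in control libraries, with a limma adjusted p of 0.0155. The other marked row averaged 1452 ± 307 in knockout and 2403 ± 841 in control libraries, its groups overlapped, and its limma adjusted p was 0.436. Knockout 1 and control 3 stood apart in 1 measure of composition, since rows with miRBase-style IDs took 31.4% of the total in knockout 1 and 5.28% in control 3, against 8.40% to 17.8% in the other 7. Nuclear protein-coding rows took 25.9% in knockout 1 and 48.4% in control 3, against 26.4% to 44.9% in the other 7.

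No mitochondrial RNA passed the test between the clones. limma on log2(value + 1), with p-values adjusted over the 27777 rows tested by the Benjamini-Hochberg method, called 0 of the 35 mitochondrial rows tested at 0.05, where it called 0.54% of all rows. It gave 0 of them an unadjusted p under 0.05, against 8.63% of all rows, and the smallest adjusted p was 0.616. edgeR called 0, with 2 at an unadjusted p under 0.05 (MT-RNR1 and MT-RNR2), where it called 0.544% of all rows and gave 7.9% such a p. DESeq2 called 0, with the same pair at an unadjusted p under 0.05, where it called 2.14% of all rows and gave 8.51% such a p. The authors' deposited table also has 0 of them called, where 2.05% of all rows were, and 3 at an unadjusted p under 0.05 (MT-RNR1, MT-RNR2 and MT-TD), where 7.65% of all rows were. Knockout and control values overlapped in all 37 rows, while 3.95% of all rows tested had groups that did not overlap. Between same-numbered libraries, which form 4 pairs and leave out knockout 5, the knockout library was the lower one in 4 of 4 pairs for 13 of 13 mRNAs, both rRNAs and 1 of the 20 tRNAs tested (MT-TP), as it was for 10.9% of all rows tested.

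The fold changes lay mostly on one side of 0 without passing the test. The log2 fold change, knockout over control, was negative in 33 of 35 rows. It was negative in 49.0% of all rows and in 63.4% of nuclear protein-coding rows. The 35 rows share transcripts and libraries, so they are not independent. The median log2 fold change was -0.89 over the 13 mRNAs, -0.98 over the 2 rRNAs and -0.31 over the 20 tRNAs tested. The same median was 0.01 over all rows and -0.09 over nuclear protein-coding rows. With quantile normalization 25 of the 35 were negative. Knockout 1 was the lowest library for every mRNA and control 3 the highest for most. The mRNA median was -0.44 without knockout 1, -0.63 without control 3 and -0.16 without both, a choice made after the data were seen. The tRNA median was 0.02 without control 3 and 0.14 without both, and the rRNA median was -0.82 without both. Leaving out knockout 5 or control 4 moved these medians away from 0. Without knockout 5 the median was -1.17 for the mRNAs and -0.52 for the tRNAs. In that fit 7 of 13 mRNAs and 2 of the 20 tRNAs had an unadjusted p under 0.05, against 6.68% of all rows. Without control 4 the median was -1.07 for the mRNAs, -0.59 for the tRNAs and -1.43 for the rRNAs. Here both rRNAs, 2 of the 20 tRNAs and 0 of the mRNAs had an unadjusted p under 0.05, against 12.9% of all rows. None was called in either fit. A block for the replicate number left 0 mitochondrial rows called and 43 of all rows (0.155%). Knockout 5 has no partner there and takes a term of its own, so 8 libraries set the fold changes, which equal those without knockout 5. With this block 12 of the 13 mRNAs, both rRNAs and 1 of the 20 tRNAs tested had an unadjusted p under 0.05. This compares with 11.2% of all rows, and the smallest adjusted p of the mitochondrial rows was 0.200. In bulk RNA normalized by library, a difference in the number of mitochondria and one in the RNA of each cannot be told apart.

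**Figure D1:**
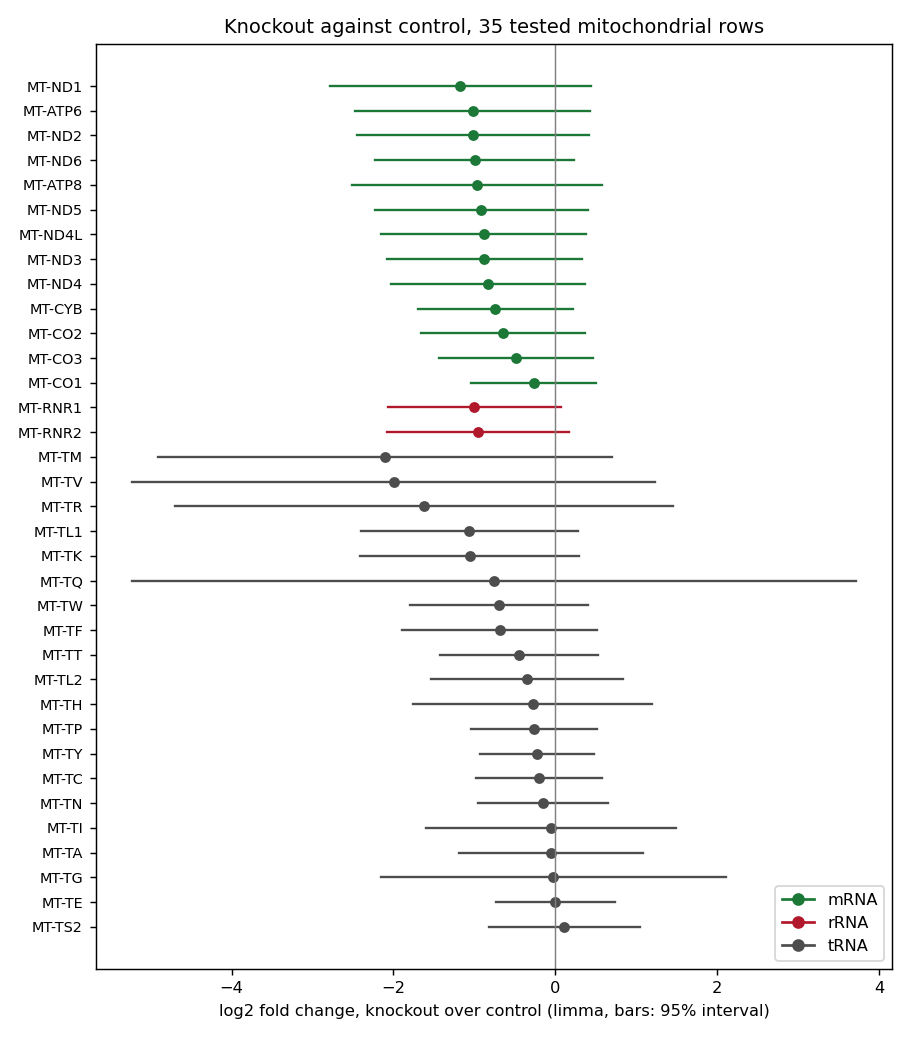
Log2 fold change (x axis, knockout over control, limma on log2(value + 1)) of the 35 mitochondrial rows tested, by RNA class, with bars for the 95% interval. Every interval includes 0, and 33 of 35 points lie below 0.

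As a share of the library total on this scale, the 37 RNAs took 0.609%, 1.11%, 1.54%, 1.58% and 3.15% in knockout 1 to 5, against 1.29%, 1.70%, 3.09% and 1.88% in control 1 to 4. Knockout 1 was lowest, and knockout 5 and control 3 were highest and nearly equal. The group means were 1.60% ± 0.953 in knockout and 1.99% ± 0.776 in control libraries (SD, n = 5 and 4). The mRNAs made up 63.9% to 80.8% of the mitochondrial sum in knockout libraries and 66.2% to 79.5% in control libraries. The rRNAs made up 6.37% to 16.4% in knockout libraries and 6.79% to 24.6% in control libraries. The tRNA rows made up 12.7% to 19.8% in knockout libraries and 9.23% to 14.9% in control libraries.

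The complex IV mRNAs were the most abundant. MT-CO1 encodes the catalytic subunit of cytochrome c oxidase, which reduces oxygen. It had 41346, 55351, 74699, 47693 and 78477 normalized counts in knockout 1 to 5, against 47083, 60640, 126171 and 64550 in control 1 to 4. Control 3 was highest, and the other 3 control libraries lay inside the range of the knockout libraries. The log2 fold change was -0.27 (SE 0.35, 95% interval -1.04 to 0.51), the closest to 0 among the mRNAs. It was 0.02 without control 3 and 0.32 with quantile normalization.

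MT-CO2, whose protein takes electrons from cytochrome c, had 21656, 40524, 52775, 34158 and 71807 in knockout 1 to 5, against 38730, 75198, 131547 and 43346 in control 1 to 4. MT-CO3, whose protein is the remaining core subunit of the enzyme, had 28352, 41352, 65959, 35108 and 66385 in knockout 1 to 5, against 35330, 62920, 133850 and 51533 in control 1 to 4. Both were lowest in knockout 1 and highest in control 3, and otherwise overlapped. Their log2 fold changes were -0.64 (SE 0.45) for MT-CO2 and -0.48 (SE 0.43) for MT-CO3. That of MT-CO3 was 0.05 without knockout 1 and control 3.

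MT-CYB encodes cytochrome b, the mitochondrially encoded subunit of complex III. It had 5618, 8193, 11726, 9130 and 18989 in knockout 1 to 5, against 9115, 16879, 34098 and 14180 in control 1 to 4. Control 3 exceeded every knockout library, while knockout 5 exceeded the other 3 control libraries. Its log2 fold change was -0.74 (SE 0.43, 95% interval -1.70 to 0.22).

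The complex I mRNAs encode membrane subunits of NADH dehydrogenase, the entry point of electrons from NADH. MT-ND1, whose protein helps form the quinone-binding site, had 786, 4468, 5956, 5434 and 17030 in knockout 1 to 5, against 9809, 9725, 15912 and 7282 in control 1 to 4. Knockout 5 was the highest library of all and knockout 1 the lowest by far, a 21.7-fold range within 1 clone. The log2 fold change of -1.17 (SE 0.72, 95% interval -2.79 to 0.44) was the largest in size among the mRNAs and had the widest interval. MT-ND2, which encodes an antiporter-like subunit of the proton-pumping arm, had 1087, 5042, 5743, 5786 and 16285 in knockout 1 to 5, against 9066, 9349, 16009 and 7423 in control 1 to 4. As for MT-ND1, 4 knockout libraries lay below all 4 control libraries and knockout 5 lay above them. Its log2 fold change was -1.02 (SE 0.64).

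MT-ND4 and MT-ND5 encode the other antiporter-like subunits of the same arm. MT-ND4 had 3951, 12814, 16875, 12942 and 28176 in knockout 1 to 5, against 15124, 24136, 42507 and 16175 in control 1 to 4. MT-ND5 had 1151, 4151, 4475, 5456 and 13191 in knockout 1 to 5, against 6930, 8249, 13303 and 5881 in control 1 to 4. For MT-ND4 knockout 3 and knockout 5 exceeded control 1 and control 4. For MT-ND5 knockout 1 to 4 lay below every control library, and knockout 5 lay just under control 3. The log2 fold changes were -0.83 (SE 0.53) for MT-ND4 and -0.91 (SE 0.59) for MT-ND5.

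MT-ND3, MT-ND4L and MT-ND6 encode small subunits of the membrane arm. MT-ND3 had 3659, 15479, 16855, 11668 and 21931 in knockout 1 to 5, against 16630, 31841, 36697 and 11931 in control 1 to 4. MT-ND4L had 3131, 14120, 14185, 9766 and 23968 in knockout 1 to 5, against 12348, 22356, 38925 and 14760 in control 1 to 4. Both were lowest in knockout 1 and highest in control 3, with overlap between the groups elsewhere. MT-ND6, the mRNA of the light-strand transcript, had 1249, 4129, 4530, 4881 and 12436 in knockout 1 to 5, against 6826, 9072, 13434 and 6367 in control 1 to 4. Here too knockout 1 to 4 lay below every control library and knockout 5 between control 2 and control 3. The log2 fold changes were -0.88 (SE 0.54) for MT-ND3, -0.89 (SE 0.56) for MT-ND4L and -0.998 (SE 0.55) for MT-ND6.

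The complex V mRNAs encode membrane subunits of ATP synthase. MT-ATP6, whose protein forms part of the proton channel, had 1967, 9569, 12296, 10093 and 24534 in knockout 1 to 5, against 12114, 21167, 34792 and 12178 in control 1 to 4. MT-ATP8, whose protein is a short subunit of the same membrane part, had 2278, 10420, 11068, 11864 and 35922 in knockout 1 to 5, against 12812, 28840, 35118 and 12188 in control 1 to 4. For MT-ATP8 knockout 5 was the highest library and the other 4 lay below all controls, and for MT-ATP6 knockout 3 also reached the lower controls. The log2 fold changes were -1.02 (SE 0.65) for MT-ATP6 and -0.96 (SE 0.69) for MT-ATP8.

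**Figure D2:**
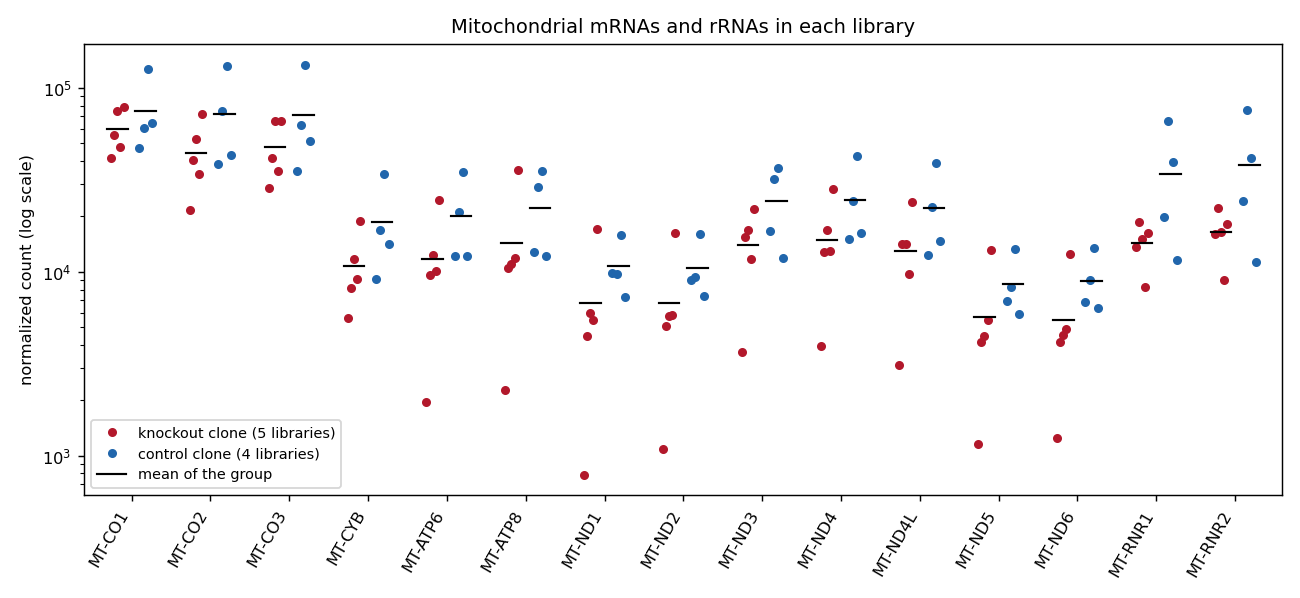
Normalized counts (log scale) of the 13 mitochondrial mRNAs and 2 rRNAs in 5 knockout and 4 control libraries, with points for libraries and a line for the group mean. The lowest point of each mRNA is knockout 1, which lies farther from the other points for complex I and V mRNAs than for MT-CO1.

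By mean level over the 9 libraries the complex IV mRNAs stood apart from the rest. The order depends on the length scaling of the deposited values, above all for short mRNAs such as MT-ATP8 (207 nt). MT-CO1 (66223), MT-CO3 (57865) and MT-CO2 (56638) were highest, and these neighbours changed places between libraries. MT-CO2 stood above MT-ND4 in 9 of 9 libraries. MT-ND4, MT-ND3, MT-ATP8, MT-ND4L, MT-ATP6 and MT-CYB followed with means between 19189 and 14214, and the SD of each, 8613 to 12158, exceeded the differences among them. MT-CYB stood above MT-ND1 (8489) in 8 of 9 libraries, although the difference of their means was smaller than the SD of MT-CYB. MT-ND1, MT-ND2, MT-ND6 and MT-ND5 were lowest with means between 8489 and 6976. There MT-ND1 stood above MT-ND2 in 4 of 9 libraries, MT-ND2 above MT-ND6 in 8, and MT-ND6 above MT-ND5 in 5.

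The low value of knockout 1 was not uniform over the mRNAs. It was the lowest of 9 libraries for 13 of 13 mRNAs, while control 3 was the highest for 10 and knockout 5 for 3. For the 9 complex I and V mRNAs knockout 1 lay 3.77-fold to 7.25-fold below the median of the other knockout libraries, from MT-ND6 to MT-ND1. For the 4 mRNAs of complex IV and cytochrome b it lay 1.57-fold to 2.15-fold below, from MT-CO1 to MT-CO2. Cytochrome b was put with complex IV after its values were seen. Knockout 5 lay 1.62-fold to 3.44-fold above the median of the other knockout libraries for complex I and V mRNAs and 1.52-fold to 2.19-fold above it for the other 4.

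In log2 departures from each mRNA's median over the 9 libraries, knockout 1 and knockout 5 were related inversely over the 13 mRNAs, with Pearson's r = -0.73 and Spearman's rho = -0.87. The departures of knockout 1 had r = 0.38 with GC content and r = 0.22 with length over the same 13. These are descriptions over mRNAs that share transcripts, libraries and reference medians. Complex I mRNAs made up 8.25% of the mitochondrial sum in knockout 1, against 17.9% to 25.1% in the other knockout libraries and 19.95% to 23.7% in control libraries. Complex V mRNAs made up 2.33% in knockout 1, against 6.09% to 11.4% in the other knockout libraries and 7.23% to 8.70% in control libraries. Complex IV mRNAs made up 50.2% in knockout 1, within the 40.8% to 50.4% of the other knockout libraries and above the 34.6% to 47.3% of control libraries.

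Knockout 1 was also the library with the largest share of miRBase-style rows, 31.4%, and the smallest share of nuclear protein-coding rows. The sum of nuclear protein-coding rows in normalized counts was 7735230 in knockout 1, against 7253310 to 10199100 in the other knockout libraries. It was 9140770, 8930150, 13409900 and 7304460 in control 1 to 4. Control 3, the highest library for most mitochondrial mRNAs, was thus also the highest in this sum. The part of library composition in the mRNA pattern was not tested.

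**Figure D3:**
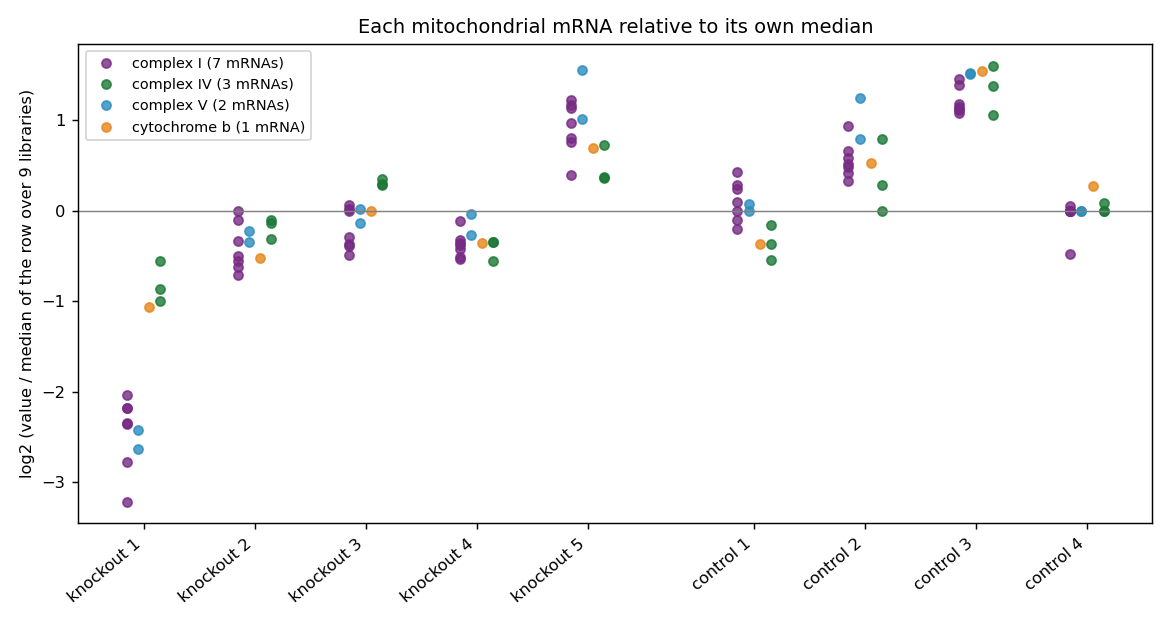
Log2 of each mitochondrial mRNA over its own median of the 9 libraries (y axis), by library, in 4 groups of mRNAs. In knockout 1 the complex I and V mRNAs lie between -3.21 and -2.03 and those of complex IV and cytochrome b between -1.06 and -0.55.

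Ratios between RNAs of the same library separated pairs that moved together from pairs that did not. MT-ND6 over MT-ND5, genes that abut on opposite strands, was 1.08, 0.995, 1.01, 0.895 and 0.943 in knockout 1 to 5, against 0.985, 1.10, 1.01 and 1.08 in control 1 to 4. This ratio spanned 1.23-fold while MT-ND5 itself spanned 11.6-fold. The strand setting of the counting (not given in the sources used here) is unknown, so reads of MT-ND6 and of RNA from the opposite strand cannot be told apart. The overlapping pair MT-ATP8 over MT-ATP6 was 1.16, 1.09, 0.900, 1.18 and 1.46 in knockout 1 to 5, against 1.06, 1.36, 1.01 and 1.00 in control 1 to 4. It was highest in knockout 5 and control 2, and the groups overlapped. MT-ND4L over MT-ND4, the other overlapping pair, lay between 0.755 and 1.10 in knockout libraries and between 0.816 and 0.926 in control libraries.

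By contrast, MT-ND1 over MT-CO1 was 0.0190, 0.0807, 0.0797, 0.114 and 0.217 in knockout 1 to 5, against 0.208, 0.160, 0.126 and 0.113 in control 1 to 4. Both extremes lay in the knockout clone, 11.4-fold apart, and the control libraries lay inside them. MT-CO2 over MT-CO1 lay between 0.524 and 0.915 in knockout libraries and between 0.672 and 1.24 in control libraries.

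**Figure D4:**
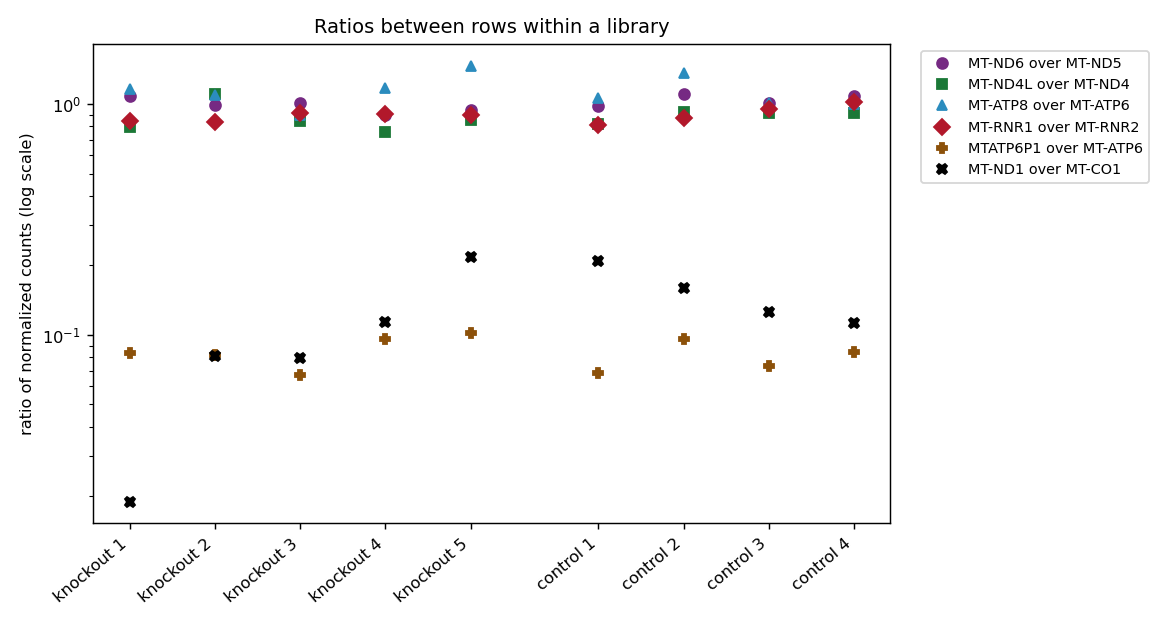
Ratio of normalized counts between 2 rows of the same library (y axis, log scale) for 6 pairs in 5 knockout and 4 control libraries. MT-ND1 over MT-CO1 runs between 0.0190 in knockout 1 and 0.217 in knockout 5, while MT-ND6 over MT-ND5 stays between 0.895 and 1.10.

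The rRNAs followed another order of libraries. MT-RNR1, the small-subunit rRNA of the mitochondrial ribosome, had 13647, 18713, 15054, 8214 and 16225 in knockout 1 to 5, against 19730, 65879, 39556 and 11545 in control 1 to 4. MT-RNR2, the large-subunit rRNA, had 16114, 22290, 16429, 9050 and 18129 in knockout 1 to 5, against 24301, 75677, 41592 and 11338 in control 1 to 4. For both, control 2 was highest, knockout 4 was lowest, and 3 of 4 control libraries exceeded all knockout libraries while control 4 lay among them. Knockout 1, the lowest for every mRNA, was within the range of the other knockout libraries here.

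MT-RNR1 averaged 14370 ± 3911 in knockout and 34178 ± 24186 in control libraries (SD, n = 5 and 4), with a log2 fold change of -1.001 (SE 0.48, 95% interval -2.07 to 0.07) and an adjusted p of 0.616. MT-RNR2 averaged 16403 ± 4790 in knockout and 38227 ± 27873 in control libraries, with a log2 fold change of -0.95 (SE 0.50, 95% interval -2.08 to 0.17) and an adjusted p of 0.660. The rRNA median was -0.55 without control 2. The ratio of MT-RNR1 to MT-RNR2 lay between 0.840 and 0.916 in knockout libraries and between 0.812 and 1.02 in control libraries. The libraries were depleted of rRNA, and how far that step reached these 2 rRNAs was not tested.

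The tRNA rows spread widely around the highest and lowest members. MT-TP, the proline tRNA, had 6987, 11992, 21867, 19432 and 18815 in knockout 1 to 5, against 14585, 14033, 22469 and 20684 in control 1 to 4. MT-TC, the cysteine tRNA, had 10145, 13846, 15414, 10174 and 12916 in knockout 1 to 5, against 11162, 19326, 25460 and 7358 in control 1 to 4. MT-TL2, the leucine tRNA with the TAG anticodon, had 3233, 5474, 2812, 5014 and 16461 in knockout 1 to 5, against 6503, 5225, 14336 and 4206 in control 1 to 4. Groups overlapped for all 3, and knockout 5 and control 3 stood out for MT-TL2. Their log2 fold changes were -0.26 (SE 0.35), -0.20 (SE 0.35) and -0.35 (SE 0.53), and each was positive under an alternative: 0.05 for MT-TP and 0.10 for MT-TC with quantile normalization, and 0.01 for MT-TL2 without control 3.

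An upper tier of 5 tRNAs formed, with MT-TP (mean 16763), MT-TC (13978), MT-TL2 (7029), MT-TN (6134) and MT-TY (5176) above the next, MT-TA (1148). MT-TY, the tyrosine tRNA, exceeded MT-TA, the alanine tRNA, in 9 of 9 libraries. MT-TP, MT-TC, MT-TN and MT-TY belong to the light-strand transcript, and MT-TL2 to the heavy-strand one. The 8 light-strand tRNAs summed to between 29822 and 49676 in knockout libraries and between 36738 and 76244 in control libraries. The 14 heavy-strand tRNAs summed to between 5434 and 23249 in knockout libraries and between 7321 and 26844 in control libraries. A gene-level value does not say whether a read came from a mature tRNA, from a precursor or, with the strand setting unknown, from the opposite strand.

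The lowest tRNAs that passed the filter on low values mostly lay at few steps. MT-TF, the phenylalanine tRNA, had 40.2, 48.5, 184, 135 and 44.96 in knockout 1 to 5, against 163, 211, 61.1 and 96.6 in control 1 to 4. MT-TR, the arginine tRNA, had 0, 41.7, 171, 43.3 and 108 in knockout 1 to 5, against 321, 46.6, 153 and 40.6 in control 1 to 4. MT-TM, the methionine tRNA, had 41.2, 135, 55.9, 0 and 82.6 in knockout 1 to 5, against 153, 93.2, 231 and 89.4 in control 1 to 4. MT-TF lay at 1 to 4 steps, MT-TM at 0 to about 4 and MT-TR at 0 to 33.6, where a step is the most common whole number among other rows of the same length. These steps are uncertain, since few other rows of the same length per library showed that whole number. They were 2 to 5 rows for MT-TR, 1 to 3 for MT-TF and 1 to 7 for MT-TM. In control 2 the step at 68 nt was 60, against 31 over rows of 66 to 70 nt, and MT-TG lay at 1.5 steps there. Of 54 tRNA values above 0 and under 6 such steps, 51 were whole multiples of it within 0.1. The log2 fold changes were -0.69 (SE 0.54) for MT-TF, -1.62 (SE 1.38) for MT-TR and -2.10 (SE 1.25) for MT-TM. All 3 rows had overlapping groups, and the single knockout library at 0 in each of MT-TR and MT-TM enters these fits at the pseudocount.

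MT-TD and MT-TS1 did not pass the filter and were not tested. MT-TD, the aspartate tRNA, was at 0 in knockout 1 to 5, against 51.0, 0, 115 and 0 in control 1 to 4, which is 1 step in control 1 and 2 steps in control 3. MT-TS1, the serine tRNA with the TGA anticodon, was at 0 in all 9 libraries. Because the number of reads behind this scale is not given, no upper limit was set for these zeros. MT-TV, the valine tRNA, was at 0 in knockout 2, and MT-TQ, the glutamine tRNA, in knockout 1 and control 4. The 14 tRNAs not described one by one had log2 fold changes between -1.997 (MT-TV) and 0.11 (MT-TS2), and all had overlapping groups. Without control 3 the fold change was negative in 9 of the 20 tRNAs tested, against 18 with all libraries, while 12 of 13 mRNAs were still negative.

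**Figure D5:**
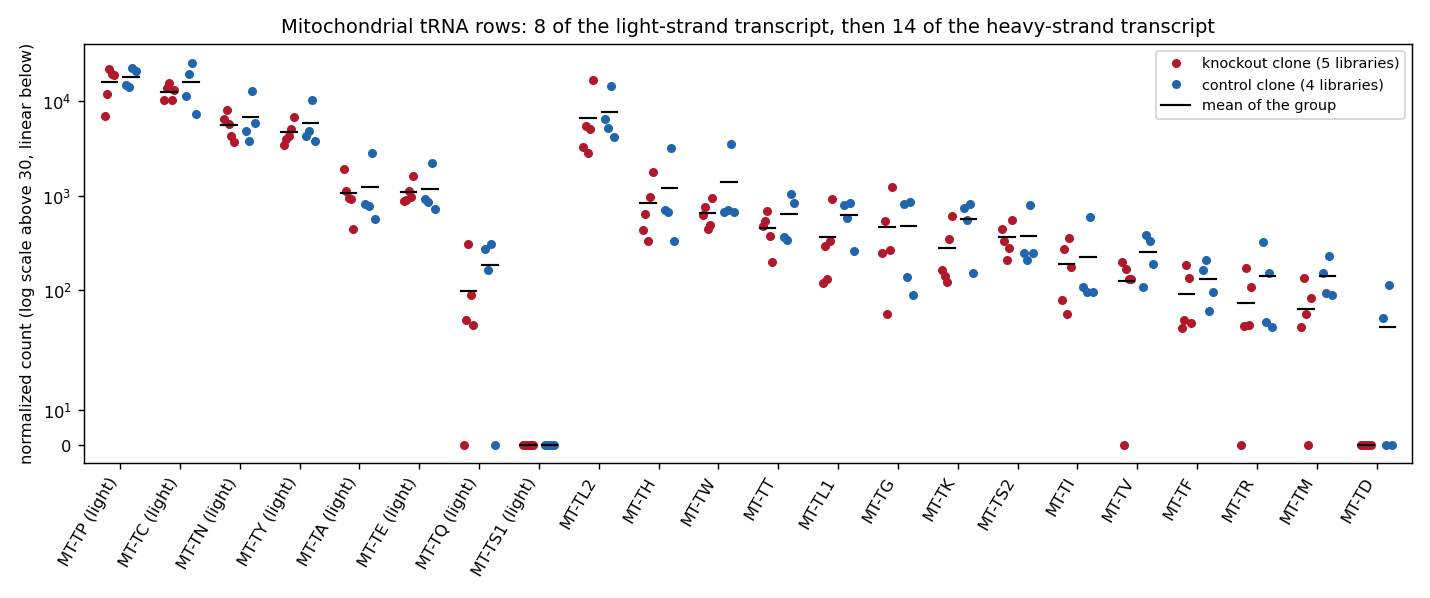
Normalized counts (log scale above 30, linear below) of the 22 mitochondrial tRNA rows in 5 knockout and 4 control libraries, with the 8 light-strand tRNAs on the left and a line for the group mean. MT-TS1 is at 0 throughout and MT-TD is above 0 in 2 control libraries.

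Copies of mitochondrial DNA in the nuclear genome can share sequence with these RNAs. Of the 31-base words of each transcript, none of any tRNA or of MT-RNR1 occurred in a nuclear GENCODE 29 transcript. The share was 66.7% for MT-CO1, 62.8% for MT-ATP6, 56.9% for MT-ND2 and 50.5% for MT-CO2, and it was lowest among mRNAs for MT-ND3 (3.48%) and MT-CYB (4.95%). MT-RNR2 shared 31.7% of its words, most of them with MTRNR2L12. Values of the mRNAs with large shares are uncertain to the extent that reads were divided among copies.

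The rows named as nuclear copies numbered 415, of which 43 were tested and 0 were called by limma, with 1 at an unadjusted p under 0.05 (MTND3P1, named after its values were seen), against 8.63% of all rows. The median log2 fold change of the 43 was -0.02. edgeR called 0, while DESeq2, and limma without knockout 3, called 1, the same row. DESeq2 called 2.14% of all rows, and limma without knockout 3 called 118 of 27777. Knockout 3 is the only knockout library in which this row was at 0, so leaving it out removes the overlap with the control libraries. MTND3P1 had 22.0, 32.7, 0, 101 and 70.02 in knockout 1 to 5, against 0 in all 4 control libraries. MTATP6P1, the highest of these copies, had 165, 785, 827, 969 and 2502 in knockout 1 to 5, against 828.8, 2029, 2553 and 1027 in control 1 to 4. It shared 399 words with MT-ATP6 and stayed at 6.72% to 10.2% of it, although MT-ATP6 spanned 17.7-fold. MTND1P19 lay between 231 and 587 in knockout libraries and between 274 and 545 in control libraries. MTND2P28, which shared 576 words with MT-ND2, had 10.04% of the value of MT-ND2 in knockout 1 and 1.89% in knockout 5, and between these in the control libraries.

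Nuclear genes that transcribe, process, modify, stabilise or degrade mitochondrial RNA were looked at beside the RNAs themselves. The list also holds genes that maintain mitochondrial DNA, such as POLG, POLG2, TWNK, MGME1 and SSBP1. Of 51 listed names 50 were rows and all 50 were tested. limma, edgeR and DESeq2 each called 0 of them, where they called 0.54%, 0.544% and 2.14% of all rows. At an unadjusted p under 0.05 limma had 1 of the 50, against 8.63% of all rows. This was TOP1MT, which encodes the mitochondrial topoisomerase and was named after its values were seen. The log2 fold change was negative in 38 of 50 (28 with quantile normalization), and in 63.4% of nuclear protein-coding rows, with a median of -0.13, against -0.09 for nuclear protein-coding rows. TOP1MT had 333, 373, 321, 348 and 397 in knockout 1 to 5, against 439, 589, 812 and 393 in control 1 to 4. Its log2 fold change was -0.60 (SE 0.21) with an adjusted p of 0.407.

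Among the transcription factors of mitochondrial DNA, POLRMT, the RNA polymerase, averaged 476 ± 82.2 in knockout and 521 ± 138 in control libraries (SD, n = 5 and 4). TFAM, which binds the promoters and packages the DNA, averaged 691 ± 164 in knockout and 922 ± 362 in control libraries. TFB2M, the initiation factor, averaged 164 ± 36.9 in knockout and 199 ± 77.4 in control libraries. Their log2 fold changes were -0.11 (SE 0.20), -0.36 (SE 0.28) and -0.23 (SE 0.27). In knockout 1 POLRMT had 442, TFAM 707 and TFB2M 166, each within the range of the other knockout libraries. Whether these levels bear on the mitochondrial mRNAs was not tested.

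LRPPRC and SLIRP form a complex that stabilises mitochondrial mRNAs. LRPPRC averaged 2387 ± 150 in knockout and 2598 ± 403 in control libraries, a log2 fold change of -0.11 (SE 0.14). SLIRP had 2771, 2944, 5096, 2951 and 3405 in knockout 1 to 5, against 3555, 4473, 8247 and 3415 in control 1 to 4, a log2 fold change of -0.46 (SE 0.29). Both were lowest in knockout 1 (LRPPRC 2216) and highest in control 3 (LRPPRC 3183), the 2 libraries at the ends of most mRNAs. REXO2, another listed gene, had the same extremes, with 1166 in knockout 1 and 1972 in control 3. Whether these move together with the mRNAs was not tested. Of the enzymes that free tRNAs, TRMT10C, a subunit of the one that cuts at the 5′ end, had a log2 fold change of -0.27 (SE 0.31), and ELAC2, which cuts at the 3′ end, one of -0.25 (SE 0.19). PNPT1 and SUPV3L1, which degrade mitochondrial RNA as a complex, had log2 fold changes of -0.10 (SE 0.18) and -0.16 (SE 0.17).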

How the data were processed

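RNA was measured in 5 knockout and 4 control libraries of H1 cells. The submitters' processing notes name fastp, kallisto, DESeq2 and hg38; the annotation release, strand setting and versions were not given in the sources used here. Per library, 1 deposited signal column holds normalized counts, which the authors divided by 1 factor each. Of these, 100% were whole multiples of the smallest value of the library (tolerance 1e-06). Steps in short rows show that transcript length had been taken into account, so the whole numbers are not single reads there. There were 0 other per-sample columns. The authors' log2 fold changes with standard errors and their p-values stand in the same deposited table.

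The main test was limma (3.58.1, R 4.3.3) with its trend option on log2(value + 1), group as the only term, on the 27777 rows kept by filterByExpr (minimum count 10), with Benjamini-Hochberg adjustment at 0.05. The pseudocount alters the fold changes of low rows, and a library at 0 can make them larger in size. MT-TM, MT-TV and MT-TR, each at 0 in 1 knockout library, had -2.10, -1.997 and -1.62 in limma. The authors' table has -1.17, -1.00 and -0.95 for them. MT-TQ, at 0 in 1 library of each group, went the other way, with -0.75 in limma and -0.92 in the authors' table. edgeR's quasi-likelihood test (4.0.16) and DESeq2 (1.42.0) on the whole numbers, other pseudocounts, no filter, 3 other scalings, a replicate block and each library left out were alternatives. The DESeq2 fold changes lay within 1.4e-05 of the authors' when run on the unfiltered rows. The scripts were tested on simulated data.

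Replicate numbers stand under the label tag "batch", and same-numbered libraries were treated as pairs on that ground. Their deviations from the group means had correlations of 0.0669, 0.0227, 0.252 and 0.325 (numbers 1 to 4), and knockout 5 has no partner. Positions and sequences are from GENCODE 29 (GRCh38), in which all 37 IDs were found. The named tRNAs are the 3 highest and the 3 lowest means among those tested. All mRNAs and rRNAs are named, as are 9 nuclear factors, the 3 highest nuclear copies, and rows singled out in the text. Members and lists were chosen with earlier results of these data known. Whole-number totals were 19838682 to 31192630 per library; the number of reads behind them is unknown, so counting intervals were not computed.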

Additional observations from a re-analysis of the deposited data

Results flagged for a closer look

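For normally distributed values, Dixon's test finds 1 library far from the others by chance in about 1 in 20 groups. Within 118 groups of 4 or 5 values (each mitochondrial row, class sum or ratio in one clone), 15 had such a library. In 8 of them control 3 was the high library: MT-TI at 592, MT-TW at 3514, MT-TA at 2829, MT-TY at 10340, MT-TH at 3157, MT-TS2 at 791, MT-TE at 2236, and the sum of all tRNA rows at 103100 normalized counts. In 3 knockout 5 was the high library, with MT-TL1 at 927, MT-ATP8 at 35920 and MT-TL2 at 16460 normalized counts. These groups are not independent, since rows of the same library share its composition. The test was run on untransformed values, which need not be normally distributed, so the 15 cannot be set against 1 in 20. Among ratios, MT-ATP8 over MT-ATP6 was far above the other controls in control 2, at 1.36. MT-ND4L over MT-ND4 was far above the other knockout libraries in knockout 2, at 1.10, and far below the other controls in control 1, at 0.816. MTCO1P12, a nuclear copy, over MT-CO1 was far above the other knockout libraries in knockout 1, at 0.00276.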

How the results depend on the processing

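No mitochondrial row and none of the 50 nuclear factors was called under any alternative run. Rows called over the whole table numbered 150, against 593 with DESeq2, 79 to 186 with 1 library left out, and 91 without both knockout 1 and control 3 (chosen after seeing the data). With the replicate number as a block 43 rows were called, against 80 without knockout 5 and with no block, where the fold changes rest on the same 8 libraries. Among mitochondrial rows and nuclear factors the block changed no call. Of the alternative values, 719 kept their direction and their side of the threshold, or stayed within the spread between libraries. A further 19 reversed in direction, and 9 moved, all of them counts of rows called over the whole table. The 719 include the tRNA median, which went from -0.31 to 0.14 without both libraries.

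Some fold changes of the genes named turned positive on the log2 scale. With quantile normalization they were 0.32 for MT-CO1, 0.054 for MT-TP, 0.10 for MT-TC, 0.11 for LRPPRC, 0.0020 for POLRMT and 0.0015 for PNPT1. With 1 library left out at a time, values ran between -0.454 and 0.020 for MT-CO1, -0.517 and 0.080 for MT-TC, -0.759 and 0.015 for MT-TL2, and -0.221 and 0.032 for POLRMT, each positive without control 3. For MT-TP they ran between -0.409 and 0.0028, positive without knockout 1. Without both libraries the values were 0.14 for MT-CO1, 0.048 for MT-CO3, 0.12 for MT-TP, 0.15 for MT-TC, 0.19 for MT-TL2, 0.055 for POLRMT, 0.016 for LRPPRC and 0.018 for TRMT10C. Among the other tRNAs the highest value then was 1.32. The cause was not tested. Quantile normalization left 25 of 35 mitochondrial fold changes negative, against 33, and leaving out control 3 left 23. Values of few steps limit the lowest tRNA rows, and 1 clone per group limits every comparison.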
